A study of Mus musculus with 30 samples.

Results

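Of the 56951 gene symbols with reads counted in mouse gastrocnemius muscle, 8 are described here: Srebf1, Srebf2, Hmgcs1, Sqle, Insig1, Fasn, Scd1 and Acly. They were chosen by name, as genes of the sterol regulatory element binding proteins and of the sterol and fatty acid synthesis that these factors control. Earlier results of these data were known when they were chosen. Each symbol had 1 row in the tables, with a mean over 20 reads per library. Srebf2, Hmgcs1, Sqle and Insig1 are called the sterol genes below and Srebf1, Fasn, Scd1 and Acly the lipogenic genes. Of the 8 genes, 7 were among the 12030 tested, and Sqle lay under the expression minimum of the test.

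All mice were wild-type C57BL/6J males, housed singly with a running wheel, and were 14 weeks old when the schedules began. The 14 mice of the LD group were kept on a light-dark cycle without shifts, and the 16 mice of the ADV group under a cycle advanced by 8 h once every 4 days, for 64 weeks in both groups. ADV is a model of chronic jet lag, and no allele, drug or diet differed between the groups. Gastrocnemius muscle, dissected with the plantaris between 9:30 and 17:30 on a day when both groups shared the same light cycle, gave 1 poly(A) RNA library per mouse, and 2 LD mice were lost before collection. The labels do not give the hour at which each mouse was killed. The comparison asks whether long circadian misalignment changed the lipid synthesis programme of aged muscle.

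The precursor proteins of Srebf1 and Srebf2 sit in the membrane of the endoplasmic reticulum, are escorted by Scap to the Golgi for cleavage when sterols are low, and are held back by Insig proteins when sterols are high. The released SREBP2 fragment mainly drives genes of cholesterol synthesis and uptake, and the SREBP1 fragment, whose gene is itself raised by insulin and by the sterol sensor LXR, mainly drives genes of fatty acid synthesis. In mice, liver and adipose tissue are the main sites of fatty acid synthesis, and muscle as dissected carries adipocytes between its fibers. Adipoq, which encodes the adipocyte hormone adiponectin, was therefore followed beside the 8 genes.

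Reads counted on exons numbered 18875468.5 to 28512674 per library, with overlapping ranges in the 2 groups, and the muscle genes Acta1, Ckm and Myh4 were the most abundant of the muscle fiber markers. The library of ADV mouse 27 stood apart in the 8 genes, with the highest value of 30 in 5 of them (Srebf1, Hmgcs1, Insig1, Fasn and Acly) and the next highest in the other 3, and results that rest on it are also given without it. Transcripts of other cell types were present and moved with the groups in part. The summed level of 8 adipocyte markers ran from 30.7 to 176 FPKM (fragments per kilobase of exon, scaled to library size; median 112) in LD mice and from 20.5 to 302 (median 101) in ADV mice, none of the 8 was at 0 in every library, and 7 of 7 tested had a fold change above 1. For 10 Schwann cell markers the summed level was 14.1 to 32.6 FPKM in LD mice (median 19.9) and 16.0 to 58.5 FPKM in ADV mice (median 29.01), with none at 0 in every library and 6 of 6 tested above LD. Of all 12030 genes tested, 6111 had a fold change above 1. In bulk tissue, fewer or more cells of a type cannot be told apart from less or more RNA per cell. Clock genes also differed. At a false discovery rate under 0.05 by edgeR, all 7 tested genes that run opposite to Bmal1 were called lower in ADV mice. Of the 5 genes in the phase of Bmal1, 3 were called higher, Bmal1 included, and 4 had a fold change above 1. Such calls were made for 10.8% of all genes tested.

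The promoter windows found for 6 of the 8 genes differed in sequence letters that SREBPs and their partners are known to read. RefSeq promoter windows of GRCm38.p6, an earlier build than the GRCm39 of the read counts, hold 250 bases before and 50 after a start site, and 6 of the 8 genes matched; Sqle and Scd1 did not. Windows of a sterol gene with a sterol regulatory element, of the SREBP2 gene itself, of the feedback gene Insig1 and of a pair of lipogenic genes are printed 5′ to 3′ on the gene's strand. Capitals mark matches on either strand to TCACNCCAC (the sterol regulatory element of the LDL receptor gene), CACGTG (an E box) and CCAAT (the NF-Y box, written ATTGG where it lies on the opposite strand). The windows are chr13:119690101-119690400 (plus strand) for Hmgcs1, chr15:82147019-82147318 (plus) for Srebf2, chr5:28071162-28071461 (plus) for Insig1, chr11:120824498-120824797 (minus) for Fasn and chr11:100527951-100528250 (minus) for Acly.
Hmgcs1: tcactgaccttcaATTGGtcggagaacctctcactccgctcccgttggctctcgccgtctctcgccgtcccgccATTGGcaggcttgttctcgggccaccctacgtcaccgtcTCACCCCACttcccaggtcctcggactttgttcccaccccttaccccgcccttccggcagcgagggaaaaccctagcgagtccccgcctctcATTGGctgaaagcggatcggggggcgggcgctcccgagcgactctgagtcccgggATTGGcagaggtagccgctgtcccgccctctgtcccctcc
Srebf2: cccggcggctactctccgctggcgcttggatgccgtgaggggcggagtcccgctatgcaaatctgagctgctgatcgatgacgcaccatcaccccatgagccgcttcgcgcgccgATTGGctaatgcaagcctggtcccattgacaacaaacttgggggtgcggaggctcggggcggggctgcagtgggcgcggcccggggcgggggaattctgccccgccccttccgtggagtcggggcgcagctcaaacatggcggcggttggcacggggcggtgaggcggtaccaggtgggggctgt
Insig1: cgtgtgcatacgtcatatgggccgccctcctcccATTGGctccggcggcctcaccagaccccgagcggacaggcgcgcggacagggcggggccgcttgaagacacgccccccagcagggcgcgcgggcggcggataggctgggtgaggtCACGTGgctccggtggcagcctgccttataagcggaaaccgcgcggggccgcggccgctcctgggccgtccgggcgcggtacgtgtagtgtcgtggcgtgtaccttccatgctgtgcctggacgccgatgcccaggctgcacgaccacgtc
Fasn: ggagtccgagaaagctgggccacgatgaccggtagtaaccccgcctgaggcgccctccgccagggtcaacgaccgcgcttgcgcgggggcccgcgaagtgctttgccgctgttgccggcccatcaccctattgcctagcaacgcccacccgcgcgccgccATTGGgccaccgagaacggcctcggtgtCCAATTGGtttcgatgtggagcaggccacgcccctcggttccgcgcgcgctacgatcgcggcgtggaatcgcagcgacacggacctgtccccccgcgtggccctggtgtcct
Acly: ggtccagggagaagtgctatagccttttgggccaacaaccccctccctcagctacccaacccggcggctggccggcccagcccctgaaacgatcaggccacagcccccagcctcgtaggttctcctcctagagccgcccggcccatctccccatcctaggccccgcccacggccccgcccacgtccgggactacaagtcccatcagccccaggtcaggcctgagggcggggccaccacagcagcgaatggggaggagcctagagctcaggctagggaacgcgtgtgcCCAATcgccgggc
The sterol element letters were found once, in Hmgcs1, with the match beginning at position -137 from the start site, and 1.24% of all 32851 windows held such a match. The Hmgcs1 window also held 4 CCAAT boxes, the most among the windows of these genes. Fasn held 3 CCAAT boxes, of which 2 overlap, and Srebf2, Insig1 and Acly held 1 each, as did 2 of the 3 Srebf1 windows. A CCAAT box stood in 37.4% of all windows. Insig1 alone among the matched genes held the E box, beginning at position -101, against 7.15% of all windows. These matches describe letters and were not tested for binding. Only exact matches were counted, so a window without a match is not shown to lack a variant of the element.

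The 8 genes spanned a wide range of levels per length. Scd1 was the most abundant, with a mean of 48.5 FPKM over the 30 mice, followed by Srebf1 (9.77 FPKM), Hmgcs1 (7.23), Acly (5.30), Fasn (5.03), Insig1 (4.20), Srebf2 (3.72) and Sqle (0.417). The ranges over mice of each pair of neighbours in this order overlapped, with the exception of Srebf2 and Sqle. The lowest Srebf1 value (7.13 FPKM) lay above the highest Srebf2 value (5.23 FPKM), and the level of Sqle rested on a mean of only 27.7 reads.

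Srebf2 encodes SREBP2, the factor of cholesterol synthesis, and its transcript did not differ detectably between the groups. Its row lies on GRCm39 chromosome 15, 82031382 to 82089580, plus strand, with 19 exons. The lowest, median and highest Srebf2 values were 2.58, 3.32 and 4.85 FPKM among LD mice and 2.90, 4.00 and 5.23 FPKM among ADV mice. The ranges overlapped almost fully, and 12 of 16 ADV mice lay above the LD median. The log2 fold change of ADV over LD was 0.14 (SE 0.08, 95% interval -0.03 to 0.30), with a false discovery rate (FDR, the Benjamini-Hochberg adjusted p of edgeR's quasi-likelihood test over all genes tested) of 0.268, and it was 0.04 after removal of each library's trend with GC content (FDR 0.782). An opposite-strand lncRNA, Gm56711, shares 6.1% of the Srebf2 exon bases, and whether the counting used strand is not given in the sources used here.

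Hmgcs1 encodes the cytosolic synthase that makes HMG-CoA, the entry to the mevalonate pathway, and it was the gene nearest to a group difference. It lies on chromosome 13, 120152000 to 120169796, plus strand, with 11 exons. LD mice ran from 5.39 to 8.47 FPKM with a median of 6.77, and ADV mice from 5.22 to 10.6 FPKM with a median of 7.54. Although 13 of 16 ADV mice exceeded the LD median, the lowest of all 30 mice was also an ADV mouse. The log2 fold change was 0.12 (SE 0.07, 95% interval -0.02 to 0.26, edgeR FDR 0.239). After the same GC content correction it was 0.21 with an edgeR FDR of 0.0568, still short of the threshold of 0.05. The lncRNA Gm48342 on the opposite strand shares 13.2% of the Hmgcs1 exon bases.

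Sqle encodes squalene epoxidase, which oxidizes squalene in the later, sterol-specific steps, and its transcript was the least abundant of the 8. The gene spans 59186930 to 59203041 on the plus strand of chromosome 15, with 11 exons, and 16.7% of its exon bases are shared with the opposite-strand gene Washc5. Its level was 0.130 to 0.720 FPKM in LD mice (median 0.329) and 0.151 to 1.26 FPKM in ADV mice (median 0.365), from a mean of 25.1 and 30.0 reads. Only ADV mice 27 and 28, at 1.25 and 1.26 FPKM, exceeded the highest LD mouse. In the fit without an FPKM minimum the log2 fold change was 0.24 (SE 0.27, 95% interval -0.32 to 0.80, edgeR FDR 0.594).

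Insig1 encodes the sterol-regulated anchor that retains the SCAP-SREBP complex and is itself an SREBP target, and it showed the smallest distance between groups of the sterol genes. It lies on chromosome 5, 28276361 to 28283660, plus strand, in 5 exons. LD mice ran from 3.08 to 5.66 FPKM (median 4.16) and ADV mice from 2.53 to 9.80 FPKM (median 3.95). ADV mouse 27 held the highest value, and the ADV group otherwise lay within or below the LD range. Its log2 fold change was 0.01 (SE 0.13, 95% interval -0.25 to 0.28, edgeR FDR 0.953), and -0.11 without ADV mouse 27 (edgeR FDR 0.465).

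**Figure D1:**
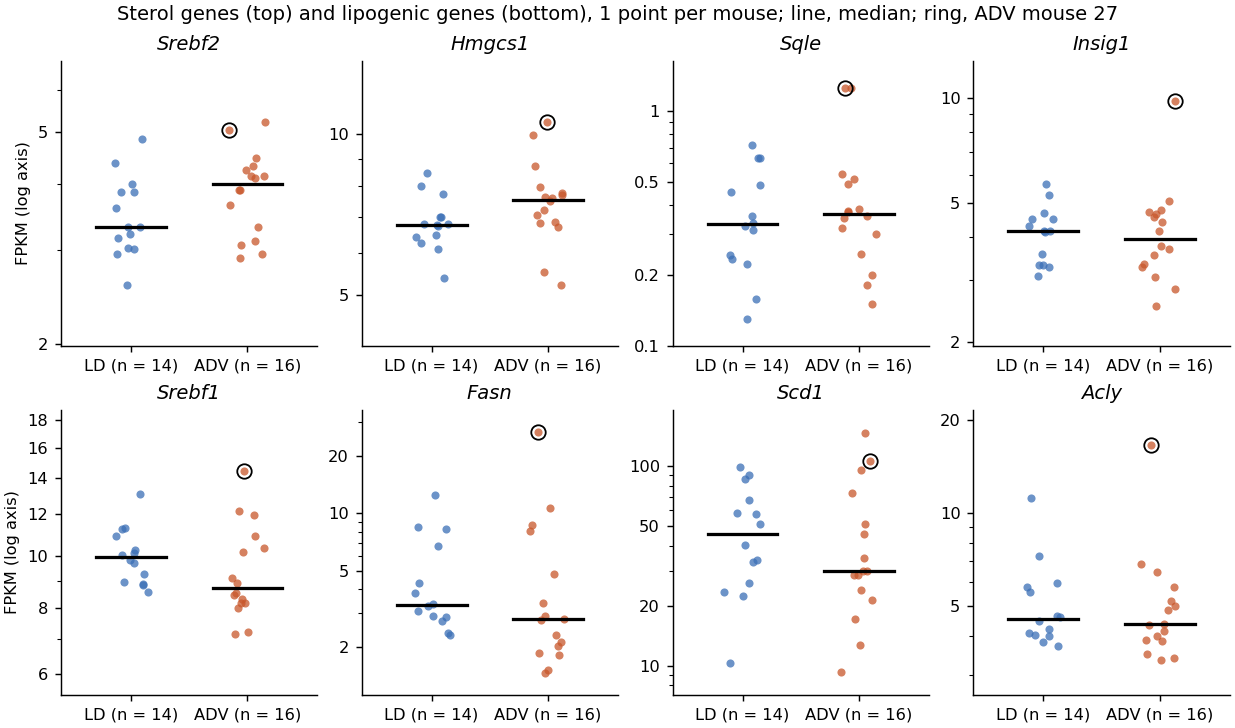
FPKM of each mouse (log axis, a separate range per gene) for the sterol genes in the top row and the lipogenic genes in the bottom row, with LD in blue, ADV in orange, the group median as a line and a ring around ADV mouse 27. The 2 groups overlap in every gene, and the spread within a group is far wider for Fasn (1.46 to 26.6 FPKM in ADV mice) and Scd1 (9.32 to 146.6 FPKM) than for Srebf2 or Hmgcs1. Spread does not divide the sterol from the lipogenic genes. The sterol gene Sqle, at few reads, also spreads widely (coefficient of variation 72.7% in ADV mice), and the lipogenic gene Srebf1 does not (21.3%).

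Srebf1 encodes SREBP1, the factor of fatty acid synthesis, and its transcript was not called different either. Its row lies on chromosome 11, 60089915 to 60111430, minus strand, and is 1 transcript with 19 exons. Its count does not tell apart isoforms that share these exons but have alternative first exons. With Rai1 on the opposite strand it shares 2.6% of its exon bases. LD mice ran from 8.58 to 13.1 FPKM with a median of 9.94, and ADV mice from 7.13 to 14.5 FPKM with a median of 8.71. ADV mice lay mostly low, with 6 of 16 above the LD median, although the highest mouse of all was ADV mouse 27. A log2 fold change of -0.11 was measured (SE 0.08, 95% interval -0.27 to 0.06, edgeR FDR 0.385), -0.15 without ADV mouse 27 (edgeR FDR 0.165), and -0.21 after removal of the GC content trend (edgeR FDR 0.0992).

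Acly encodes ATP citrate lyase, which splits cytosolic citrate into the acetyl-CoA used by both sterol and fatty acid synthesis. The gene occupies 100367179 to 100418826 on the minus strand of chromosome 11, with 29 exons. The LD range was 3.72 to 11.2 FPKM (median 4.54) and the ADV range 3.35 to 16.6 FPKM (median 4.37). In each group a lone mouse stood high, LD mouse 34 at 11.2 and ADV mouse 27 at 16.6 FPKM. Its log2 fold change was 0.00 (SE 0.19, 95% interval -0.38 to 0.38, edgeR FDR 0.999), and -0.21 without ADV mouse 27 (edgeR FDR 0.315).

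Fasn encodes fatty acid synthase, which builds palmitate from malonyl-CoA, and it varied more between mice than nearly all other genes. It lies on chromosome 11, 120696672 to 120715373, minus strand, with 43 exons. LD mice ran from 2.31 to 12.5 FPKM (median 3.32) and ADV mice from 1.46 to 26.6 FPKM (median 2.78), so that the highest ADV mouse exceeded the lowest 18.3-fold. The coefficient of variation was 63.7% in LD mice and 122% in ADV mice, and 99.5% and 99.9% of the genes tested had a lower value in the same group. Without ADV mouse 27 the ADV range was 1.46 to 10.6 FPKM, 7.30-fold, with a coefficient of variation of 76.8% that exceeded that of 99.6% of the genes tested. The log2 fold change of 0.09 had an SE of 0.38 (95% interval -0.68 to 0.86, edgeR FDR 0.897), and became -0.35 without ADV mouse 27 (edgeR FDR 0.464). It was also negative without ADV mouse 22 (-0.021) and, with all mice, in the ratio of the group medians (-0.26). Of the 16 ADV mice, 6 lay above the LD median.

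Scd1 encodes stearoyl-CoA desaturase, which places a double bond into palmitate and stearate, and it was the most abundant of the 8. The gene spans 44382894 to 44396148 on the minus strand of chromosome 19, with 6 exons. LD mice ran from 10.3 to 98.8 FPKM (median 45.7) and ADV mice from 9.32 to 146.6 FPKM (median 30.0). Most ADV mice lay low, with 5 of 16 above the LD median, yet the highest mouse was also an ADV mouse. The log2 fold change was -0.11 (SE 0.34, 95% interval -0.80 to 0.59, edgeR FDR 0.860), the ratio of the medians was -0.61 on the log2 scale, and the exact Wilcoxon rank-sum test gave an adjusted p of 0.695. The fold change was -0.23 without ADV mouse 27, and over all fits that left out a library it ran from -0.33, without ADV mouse 23, to 0.0010, without LD mouse 23. Scd2, the paralogue that resembles it in sequence, averaged 4.82 FPKM in LD and 4.81 FPKM in ADV mice (edgeR FDR 0.911).

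Among the 7 members tested, 0 passed the FDR threshold of 0.05 with edgeR, 0 had an unadjusted p under 0.05, and 0 were called by DESeq2. Over all genes tested, edgeR called 1301 of 12030, or 10.8% (5.61% higher and 5.20% lower in ADV mice), and 30.1% had an unadjusted p under 0.05; DESeq2 called 14.0%. The median log2 fold change was 0.12 over the 3 sterol genes tested and -0.05 over the 4 lipogenic genes, beside 0.00 over all genes. None of these intervals excludes a small change, and those of Fasn, Scd1 and Acly still hold differences of 0.38 on the log2 scale in each direction. The replicates are separate mice. None of the 7 genes was called under any of 14 alternative settings or without any of the 30 libraries in turn.

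**Figure D2:**
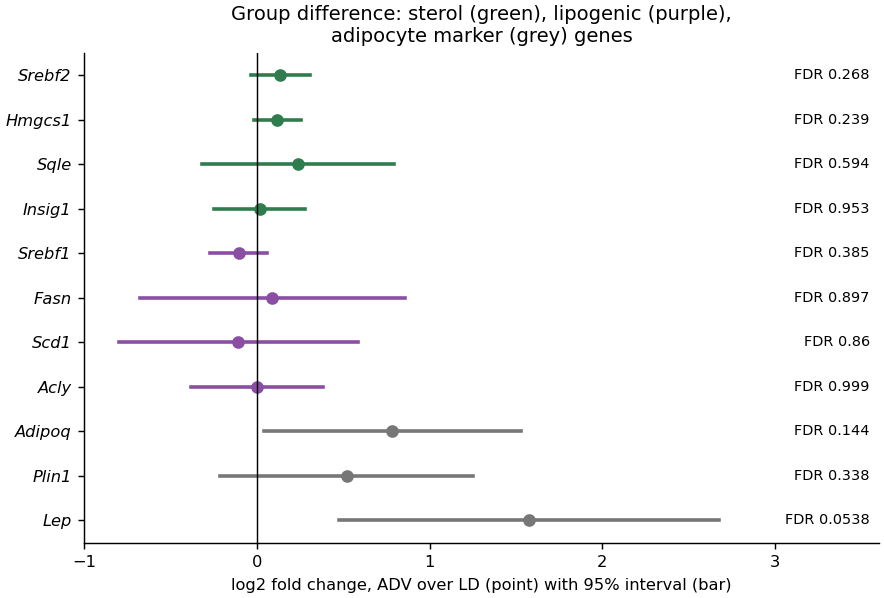
Log2 fold change of ADV over LD (points) with 95% intervals (bars) for the sterol genes (green), the lipogenic genes (purple) and the adipocyte markers Adipoq, Plin1 and Lep (grey), with the edgeR FDR at the right. The intervals of the 8 genes cross 0, those of Fasn and Scd1 are wide, and the 3 adipocyte markers lie to the right with FDRs of 0.144, 0.338 and 0.0538.

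The Adipoq median was 13.98 FPKM for the LD group against 19.4 FPKM for the ADV group, and the gene was not called. Its LD values spanned 4.00 to 35.1 FPKM and its ADV values 2.44 to 83.7 FPKM, and 10 of 16 ADV mice lay above the LD median. Its log2 fold change was 0.78 (SE 0.37, edgeR FDR 0.144). Of the adipocyte markers, the log2 fold changes were 1.57 for Lep, the gene of the hormone leptin (edgeR FDR 0.0538), and, for the lipid droplet genes, 0.52 for Plin1 (FDR 0.338), 0.88 for Cidec (FDR 0.105) and 0.77 for Cidea (FDR 0.0481). The adipokine genes Cfd and Retn had 0.04 (edgeR FDR 0.946) and 0.01 (FDR 0.984). Cidea was the only marker called, at a mean of 0.871 FPKM, and lost the call in 18 of 30 fits that left out a library. This count of 1 in 7 markers tested is to be read against the 10.8% of all genes called. Adipoq shares 16.7% of its exon bases with the opposite-strand lncRNA Gm59709.

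Among mice of the same group, Scd1 and Fasn varied with Adipoq and the sterol genes did not detectably do so. The slope of each gene on Adipoq, with the group held fixed, is the log2 change in the gene per 1 log2 unit of Adipoq. It was 0.76 for Scd1 (SE 0.11, 95% interval 0.53 to 0.98, edgeR FDR 2.0e-05), that is, 1.69-fold more Scd1 where Adipoq was doubled. Fasn had a slope of 0.58 (SE 0.16, 95% interval 0.27 to 0.90, edgeR FDR 0.0332). Over all genes, 307 of 12029 slopes were called, or 2.55%, against 2 of the 7 members tested.

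For the other members the slope was smaller and was not called, although the interval of Acly, which is not adjusted for the number of genes, lay above 0. Acly had a slope of 0.18 (95% interval 0.01 to 0.35, edgeR FDR 0.346) and Insig1 one of 0.09 (-0.02 to 0.21, FDR 0.532). Both SREBP genes were flat, Srebf1 at 0.04 (-0.04 to 0.11, FDR 0.785) and Srebf2 at 0.03 (-0.04 to 0.11, FDR 0.796). Hmgcs1 was flattest, at 0.02 (-0.04 to 0.09, FDR 0.850), and Sqle, without the FPKM minimum, had 0.11 (-0.15 to 0.37, FDR 0.794). The upper bounds of all these members, Acly, Insig1 and Sqle included, thus lay under the lower bound of Scd1 (0.53).

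**Figure D3:**
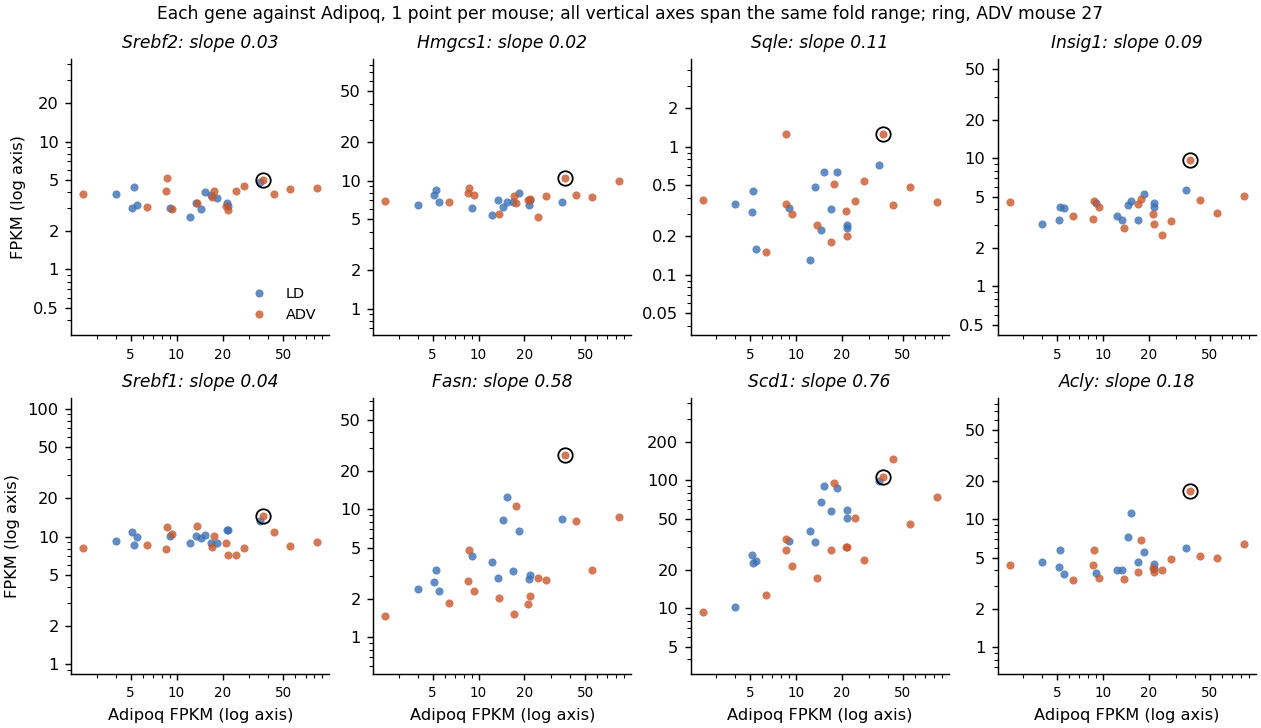
FPKM of each gene against that of Adipoq in the same mouse (both log axes, every vertical axis spanning the same fold range), LD in blue, ADV in orange, with the fitted slope in each title and a ring around ADV mouse 27. Scd1 is higher where Adipoq is higher (slope 0.76) and Fasn more loosely (0.58), while Srebf1, Srebf2 and Hmgcs1 stay level (0.04, 0.03 and 0.02).

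The Scd1 slope was called in more alternatives than the Fasn slope, while both kept their sign and much of their size. Scd1 was called in each of 6 alternatives, at 0.88 in LD mice alone (edgeR FDR 0.00165), 0.70 in ADV mice alone (FDR 0.0249), 0.83 without the 2 mice farthest from the Adipoq median and 0.73 without ADV mouse 27. Fasn was called with library size alone as the scaling (0.60, FDR 0.0289). It kept a slope of 0.44 without ADV mouse 27 but lost the call (edgeR FDR 0.0621), as it did without the 2 farthest mice (0.62, FDR 0.0933), in LD mice alone (0.52, FDR 0.211) and in ADV mice alone (0.61, FDR 0.231). Both genes were called when a score of the adipocyte markers replaced Adipoq, at slopes of 1.19 for Scd1 and 1.004 for Fasn per unit of score. The sterol gene Insig1 was called in none of these alternatives. Its slope was 0.16 in LD mice alone (edgeR FDR 0.211, as for Fasn) and 0.19 on the score (FDR 0.297). In ADV mice alone the Insig1 slope was 0.06 (FDR 0.861), and without ADV mouse 27 it was 0.05 (FDR 0.766).

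The slope on Adipoq of the log2 ratio of each gene to Hmgcs1 was 0.70 for Scd1 (SE 0.09), 0.45 for Fasn (SE 0.12) and 0.13 for Acly (SE 0.07), and between 0.01 and 0.06 for Srebf1, Srebf2 and Insig1. Hmgcs1 was chosen as the reference after the data were seen and had the lowest slope of the members, so these values are a description with no test.

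With Adipoq held fixed, the group difference of Scd1 moved from -0.11 to -0.57 on the log2 scale (SE 0.22, unadjusted p 0.0152) and was not called (edgeR FDR 0.0880). That of Fasn moved from 0.09 to -0.36 (edgeR FDR 0.489) and that of Acly from 0.00 to -0.12 (FDR 0.696). Hmgcs1 stayed at 0.10 and Srebf2 at 0.12.

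No member had a called slope on a clock score. The score was the mean log2 level of genes that run with Bmal1 minus that of genes that run opposite to it, and it lay between -2.88 and 0.09 in LD mice and between -1.49 and 0.70 in ADV mice. Of the 7 members tested, 0 slopes on it were called by edgeR (0.158% of all genes were), and 0 had an unadjusted p under 0.05. Srebf2 came nearest with a slope of 0.11 (unadjusted p 0.0700), and Sqle had 0.37 (p 0.0696). DESeq2 was not run on slopes. With the score held fixed, the Srebf2 difference was -0.02 (SE 0.11) in place of 0.14 (SE 0.08). The score itself ran lower in LD mice, so group and score cannot be fully told apart, and no gene was called for the group difference in that fit.

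The 8 genes did not vary as a single programme across mice. After subtraction of the group means, Spearman correlations over the 30 mice, given as a description since the values share libraries and depth, were highest for Srebf2 with Sqle (0.81), Scd1 with Fasn (0.79) and Fasn with Acly (0.77). Acly, which feeds both pathways, stood between them, at 0.68 with Srebf2 and 0.65 with Sqle. Insig1, a sterol gene, was closer to Fasn (0.54), Acly (0.53) and Scd1 (0.53) than to Sqle (0.30), Hmgcs1 (0.29) or Srebf2 (0.22). Sqle had 0.56 with Fasn, so the sterol and lipogenic genes did not separate cleanly across mice. Hmgcs1 was at most 0.31 with any other member. Srebf1 had 0.24 with Fasn, 0.19 with Scd1 and -0.03 with Srebf2, and its highest value among the members was 0.40 with Insig1. Without ADV mouse 27, Srebf2 with Sqle stood at 0.80, Scd1 with Fasn at 0.77 and Fasn with Acly at 0.72.

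**Figure D4:**
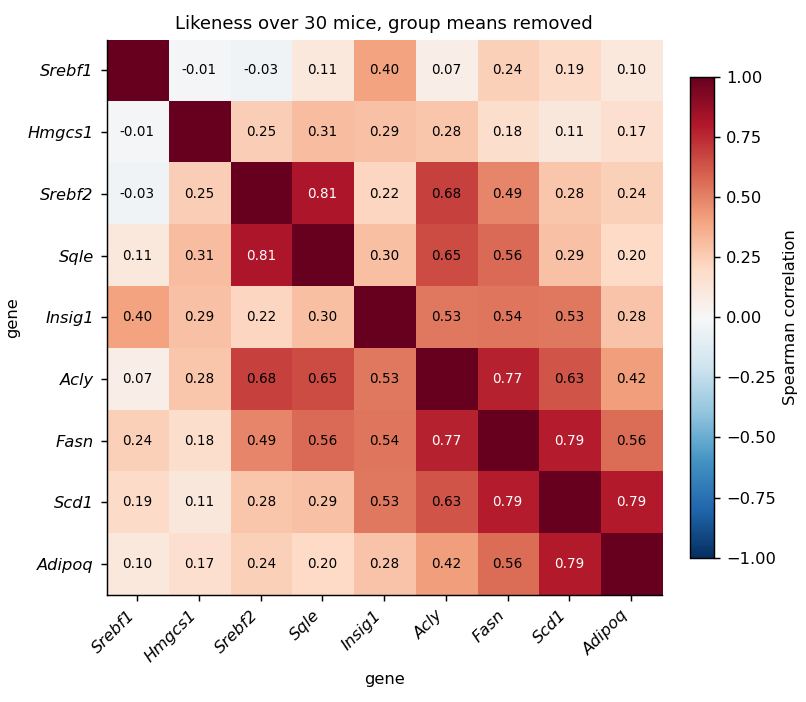
Spearman correlation over the 30 mice of log2 levels with group means removed, for each pair among the 8 genes and Adipoq. Srebf2, Sqle and Acly share high values, as do Acly, Fasn and Scd1, and Adipoq is high with Scd1 (0.79) and Fasn (0.56) but low with Hmgcs1 (0.17) and Srebf1 (0.10).

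Genes most like each member over all genes tested were taken by the same measure. Srebf2 was close to Dynll1 (0.80) and Gm49450 (0.78), and Sqle to Srebf2 (0.81) and Mrtfa (0.75). Fasn was most like Slc25a10 (0.86), Slc25a1, the mitochondrial citrate carrier (0.86), and Cdo1 (0.85). Acly was most like Slc25a10 (0.82), Mtss1 (0.80) and Fasn (0.78). Scd1 was most like Rbp4 (0.91), which encodes a retinol carrier made by adipocytes and liver, and the adipocyte markers Plin1 (0.88) and Cfd (0.88). The 3 genes named beside Scd1 and the 3 beside Fasn had called slopes on Adipoq, and none named beside Srebf1, Srebf2, Hmgcs1, Sqle or Insig1 did. These neighbours were picked by correlation in the same mice, where Scd1 and Fasn themselves stood at 0.79 and 0.56 with Adipoq. The split thus follows in part from the choice and is no separate evidence.

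For Hmgcs1 and Insig1, the nearest genes were not genes of sterol synthesis. Hmgcs1 was most like Parp10 (0.78), Il18bp (0.74) and Impa2 (0.71). Insig1 was most like Gne (0.71), Zfp518b (0.70) and Ero1b (0.68), of which Ero1b was called lower in ADV mice (log2 fold change -0.28, edgeR FDR 0.0473). Srebf1 had the weakest neighbours, with Fbh1 at 0.66 and Triap1 at 0.65.

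ADV mouse 27 held high values of both arms at once. Against the median of the other 29 mice it had 9.18 times the Fasn level, 3.79 times that of Acly, 3.57 times that of Sqle, 3.12 times that of Scd1 and 2.36 times that of Insig1, and 1.38 to 1.56 times that of Srebf2, Hmgcs1 and Srebf1. Its Adipoq value of 37.0 FPKM was 2.42 times the median of the others and ranked 4 of 30, below mice whose Fasn was 8.72 FPKM or less. ADV mouse 28 was highest in Srebf2 (5.23 FPKM) and Sqle (1.26 FPKM) with an Adipoq value of 8.66 FPKM, and LD mouse 34 was next to mouse 27 in Fasn (12.5 FPKM) and Acly with an Adipoq value of 15.3 FPKM. These mice were named after their values were seen.

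The wider pathway was read from fixed lists. Of 72 genes in 6 lists, 65 were tested and 4 were called, 3 lower and 1 higher in ADV mice, with a median log2 fold change of 0.02 beside 0.00 over all genes. The 4 called were 2 of the 19 cholesterol synthesis genes, 1 of 5 LXR targets tested and 1 of 7 triglyceride genes tested. An unadjusted p under 0.05 was found for 17 of the 65, where 30.1% of all genes had one. The count of 4 of 65 is to be read against the 10.8% of all genes, and it fell to 2, Hsd17b7 and Sc5d, without ADV mouse 27.

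Among the enzymes of cholesterol synthesis, Hsd17b7, a ketosteroid reductase of sterol demethylation, fell. LD mice had 2.20 to 5.81 FPKM (median 3.50) and ADV mice 1.13 to 4.00 FPKM (median 2.73), with a log2 fold change of -0.53 (SE 0.16, edgeR FDR 0.0296). Sc5d, the desaturase of lathosterol, fell by 0.19 on the log2 scale (SE 0.04, edgeR FDR 0.00816), with LD mice between 4.99 and 6.55 FPKM and ADV mice between 3.91 and 5.89 FPKM. Both ranges overlapped between groups. After removal of the GC content trend the Sc5d change was -0.10 (edgeR FDR 0.165) and that of Hsd17b7 -0.45 (FDR 0.0881). The 3 most abundant genes of the list, Fdft1 (0.11, FDR 0.135), Fdps (0.09, FDR 0.317) and Pmvk (0.07, FDR 0.542), were not called.

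Abca1, which encodes a cholesterol efflux pump and is a target of LXR, fell by 0.41 on the log2 scale (SE 0.13, edgeR FDR 0.0393) in the fit to group means. Its medians lay closer, with 2.72 FPKM for LD against 2.46 FPKM for ADV (log2 ratio -0.15, exact Wilcoxon adjusted p 0.102). With the clock score, which itself differed between the groups, held fixed, the Abca1 difference was 0.037 (SE 0.18, edgeR FDR 0.952). Abca1 lost the call in 13 of 30 fits that left out a library. The other LXR targets named, Apoe (-0.01, FDR 0.986), Lpcat3 (-0.01, FDR 0.952) and Mylip (-0.31, FDR 0.0937), were not called. Pnpla3, which encodes a lipid droplet protein and is a target of SREBP1 in liver, rose by 0.83 (SE 0.28, edgeR FDR 0.0492), with medians of 1.76 FPKM in LD and 3.48 FPKM in ADV mice, and lost the call in 22 of 30 such fits. Its difference was 0.66 with Adipoq held fixed (edgeR FDR 0.101) and 0.029 with the clock score held fixed (SE 0.33, FDR 0.976). The abundant triglyceride genes Lpin1 (-0.07, FDR 0.677), Gpam (-0.19, FDR 0.209) and Agpat3 (0.04, FDR 0.751) were not called.

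None of the 12 tested regulators of SREBP processing and lipogenic transcription was called by edgeR, 5 had an unadjusted p under 0.05, and the median log2 fold change was -0.02. The edgeR counts in this paragraph are to be read against all genes tested, of which 10.8% were called and 30.1% had such a p. Mlxipl, the carbohydrate-responsive factor ChREBP, had 0.11 (FDR 0.206) and Insig2, the second Insig gene, -0.10 (FDR 0.116). In the fatty acid synthesis list 0 of 15 genes tested were called by edgeR, with 3 at an unadjusted p under 0.05 and a median of 0.08, and Me1 (-0.16, FDR 0.0836), Acacb (0.07, FDR 0.435) and Mlycd (0.18, FDR 0.253) were its most abundant members. In the uptake and transport list 0 of 7 tested were called, 0 had an unadjusted p under 0.05, and the median was -0.05, with Npc1 at -0.37 (FDR 0.201), Npc2 at 0.05 (FDR 0.607) and Lrp1 at -0.06 (FDR 0.639). DESeq2 called 7 of the 65 genes over the 6 lists, beside 14.0% of all genes.

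**Figure D5:**
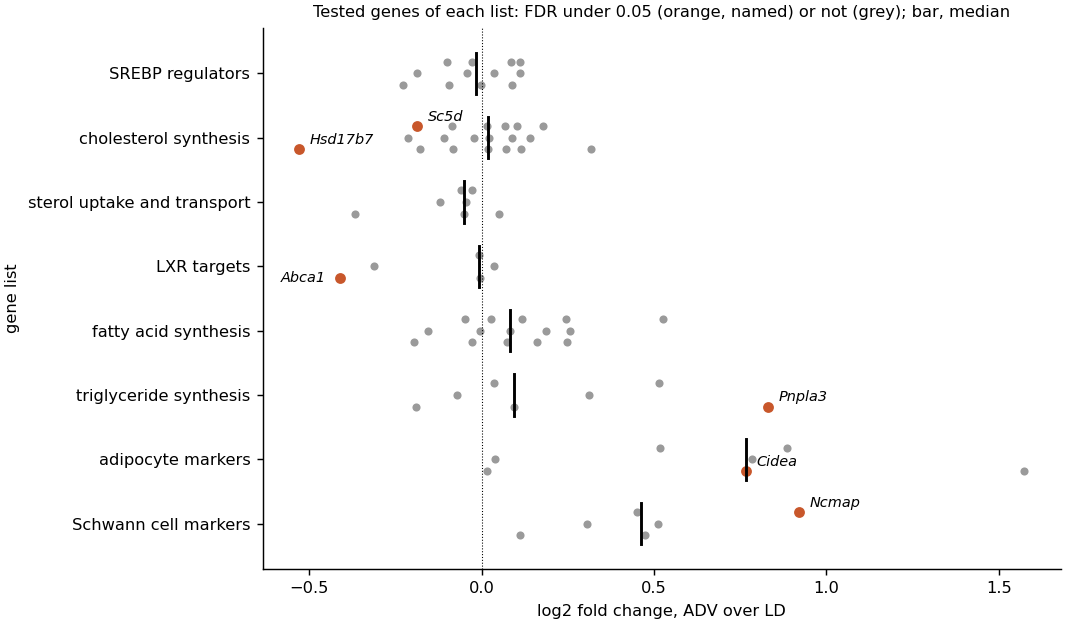
Log2 fold change of ADV over LD for each tested gene of the 6 pathway lists and of the adipocyte and Schwann cell marker lists, with genes under an FDR of 0.05 in orange and the list median as a bar. The sterol and fatty acid lists lie around 0, with Hsd17b7, Sc5d and Abca1 called lower and Pnpla3 higher, while the adipocyte and Schwann cell medians lie at 0.77 and 0.46.

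Of the 65 pathway genes tested, 5 had a called slope on Adipoq, all positive, to be read against 2.55% of all genes. They were Slc25a1 (0.44), the citrate carrier that supplies Acly, G6pdx (0.27), which yields the NADPH used by Fasn, Nsdhl (0.13) of cholesterol synthesis, the lysosomal sterol carrier Npc2 (0.11) and Apoe (0.28). None of them was called for the group difference. Of the Schwann cell genes, Ncmap rose (log2 fold change 0.92, edgeR FDR 0.0157), and the myelin genes Mbp (0.45, FDR 0.0612) and Prx (0.47, FDR 0.0624) did not pass. Their part in the values of the sterol genes was not tested.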

How the data were processed

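Gastrocnemius RNA was sequenced from 14 LD and 16 ADV mice, grouped by their labels. Trimmomatic-trimmed reads were mapped by the authors to GRCm39 with STAR 2.7.10a, those with a mapping quality under 10 were removed, and HOMER 4.11 counted the rest on exons (versions from the submitters' processing notes). The deposited estimated counts are raw, and 14.8% are not whole because each mate counts as 0.5 read; they were rounded. The deposited FPKM values are scaled to exon length and HOMER's library total. Reads on exons numbered 18875468.5 to 28512674 per library, so a gene near 20 reads carries a large counting error.

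Of 57186 rows, the longest per symbol with a mean over 20 reads and 0.5 FPKM was tested (12030 genes) with edgeR 4.0.16 (TMM, quasi-likelihood) in R 4.3.3, with Benjamini-Hochberg adjustment. Slopes on log2 CPM of Adipoq and on the clock score had group as covariate, and ratios to Hmgcs1 were fitted with limma 3.58.1. Alternatives were DESeq2 1.42.0, limma on log2(FPKM + 0.1) and log2(FPKM + 1), exact Wilcoxon tests (scipy 1.17.1), other size factors and filters, counts summed over rows, the label number as a block, covariates, GC content correction (natural spline, 4 degrees of freedom, over library deviations) and leaving out each library. The fits were tested on simulated data. Named genes were the 8 members, called genes and the 3 most abundant of each list, adipocyte and Schwann cell markers, and the 3 genes most like each member. Results for some listed genes and 1 planned covariate are not reported here. Members and lists were chosen with earlier results of these data known. The slopes and spread without ADV mouse 27 and the comparison with Hmgcs1 were added after seeing the data. Other marker lists gave 0 of 8 macrophage, 2 of 6 endothelial (Pecam1 and Emcn, higher) and 0 of 6 muscle fiber genes called by edgeR, with 2, 2 and 1 at an unadjusted p under 0.05. Of all genes tested, 10.8% were called and 30.1% had such a p.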

Additional observations from a re-analysis of the deposited data

How the results depend on the processing

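Srebf1 and Hmgcs1 kept the direction of their group difference in all 14 alternative settings and in all 30 fits that left out a library, and no member was called in any of them. Acly, at 0.00, turned negative by limma on log2(FPKM + 0.1) (-0.034) and log2(FPKM + 1) (-0.024), by Wilcoxon medians (-0.055), with RLE size factors (-0.00040), no FPKM minimum (-0.0026) or a mean over 1 read (-0.0040), with the block (-0.057), with Adipoq (-0.12) or the clock score (-0.27) as covariate and after GC content correction (-0.040). Fasn turned negative by limma (-0.22 and -0.14), Wilcoxon medians (-0.26), block (-0.34), Adipoq (-0.36), clock score (-0.29) and GC content (-0.022). Insig1 did so by limma (-0.0095 and -0.0024), Wilcoxon medians (-0.076), block (-0.00061), Adipoq (-0.036) and clock score (-0.061), Srebf2 with the clock score (-0.018), and Abca1 became 0.037 there. The Hmgcs1 slope on Adipoq was -0.041 in LD mice alone and -0.0098 without the 2 farthest mice. With each library left out, the group difference ran from -0.21 to 0.13 for Acly, -0.35 to 0.28 for Fasn, -0.11 to 0.053 for Insig1 and -0.33 to 0.0010 for Scd1. The causes were not tested.

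The count of called pathway genes, 4, was 7 by DESeq2, 2 with a mean over 1 read, 1 after GC content correction and 0 with the clock score as covariate, where 0 of all genes were called. Leaving out a library gave 1 to 7: 7 without ADV mouse 21 or 36, 2 without ADV mouse 24, 25, 27, 28 or 32 or LD mouse 30, 31 or 33, and 1 without LD mouse 28, where 835 of all genes were called in place of 1301. The count of members with a called slope on Adipoq, 2, was 1 in LD mice alone, in ADV mice alone, without the 2 farthest mice and without ADV mouse 27.

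With the label number as a block, 2 pathway genes and 494 of all genes were called; the same 28 libraries without the block gave 2 and 616. The numbers are not stated to pair mice: over 14 pairs the correlation of deviations from the group means ran from -0.26 to 0.43, 6 were over 0.1, and 3 mice correlated best with their own number. Sqle, with a mean of 27.7 reads, was fitted only without the FPKM minimum and with a mean over 1 read.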
